A study of Drosophila melanogaster with 20 samples.

Results

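The UDP-glycosyltransferase family of *Drosophila melanogaster* was followed in brains of flies kept on diets of different protein and carbohydrate content. The family was taken as every gene with a row for males and a row for females whose symbol starts with Ugt and a digit. This gave 31 genes of the 12441 measured in either sex. The reference annotation names 35 such genes, and the 4 others (Ugt49B2, Ugt303B1, Ugt303B2 and Ugt303B3) are not analysed here.

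UDP-glycosyltransferases join a sugar from a nucleotide sugar donor, in insects mainly UDP-glucose, to small fat-soluble molecules, which makes them easier to excrete. They act in the second phase of detoxification, after cytochrome P450 enzymes, and their substrates include plant toxins, insecticides, pigments, odorants and hormones. They are membrane proteins of the endoplasmic reticulum, and in flies they are known mostly from the fat body, gut, Malpighian tubules and antennae.

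The 20 libraries, 5 in each of 4 groups, were made from total RNA of brains of W1118 wild-type flies aged 4 to 7 days. Male LPHC flies ate a low-protein, high-carbohydrate diet with protein to carbohydrate at 0:1 and 180 g/L, and male HPLC flies a high-protein, low-carbohydrate diet at 1:1 and 180 g/L. Female LPHC flies ate 1:2 at 360 g/L, and female HPLC flies 1:1 at 90 g/L. In the series design the male LPHC diet is the one that gave the longest sleep and the male HPLC diet the one that gave the shortest. The female diets differ in total concentration as well as in ratio, and these cannot be told apart in females; if g/L counts protein and carbohydrate together, the female LPHC diet held more of both than the female HPLC diet. Since the recipes differ between the sexes, sex and recipe cannot be told apart. Replicate libraries are not stated to be independent flies or cultures, and the p-values hold for the variation among these libraries.

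Depth was 14715340 to 29523858 reads in male LPHC, 21733987 to 35077559 in male HPLC, 17029184 to 30077141 in female LPHC and 13901684 to 25106655 in female HPLC libraries. Values are normalised read counts, scaled separately for each sex. All 10 neuron markers were detected in both sexes, and so were markers of neighbouring tissue. Photoreceptor markers took 7.96% to 9.66% of the summed values in male LPHC and 7.60% to 8.20% in male HPLC libraries. They took 4.83% to 6.19% in female LPHC and 3.01% to 4.72% in female HPLC libraries. In females yolk protein genes, made in fat body and ovary, took 6.75% to 8.62% in female LPHC and 12.3% to 15.1% in female HPLC libraries. In 1 male library, HPLC replicate 4, the yolk protein genes took 0.118%, against at most 0.00973% in the other 9 male libraries. Without this library the same numbers of Ugt genes passed the test in males, 2 higher and 18 lower.

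Levels within the family differed by more than 3 orders of magnitude, compared as normalised reads per kilobase of exon. In male LPHC brains Ugt49C1 was highest at 1042 and Ugt35B1, a gene known for its preference for the antenna, was next at 925, with overlapping libraries. Ugt37D1 followed at 647 and Ugt302C1 at 580. In male HPLC brains Ugt35C1 was highest at 4563 reads per kilobase, above every library of the next genes, Ugt49C1 at 1527, Ugt35B1 at 1479 and Ugt302C1 at 1325, which overlapped one another. Ugt35C1, whose older name is Ugt86Dd, is known for natural variants linked to nicotine resistance of larvae.

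On this per-length scale Ugt35C1 stood in place 9 of 31 in male LPHC brains, at 219 reads per kilobase, and Ugt37B1 stood in place 25 in male LPHC and place 8 in male HPLC brains. In female LPHC brains Ugt35C1 (2043 reads per kilobase) and Ugt49C1 (1971) headed the order and overlapped, followed by Ugt49B1 (1259) and Ugt302C1 (1111). In female HPLC brains Ugt35C1 led at 6365, above every library of Ugt49C1 at 1867, and Ugt49B1 (1234) and Ugt302C1 (1105) came next and overlapped. At the lower end Ugt307A1, Ugt35D1 and Ugt304A1 stayed under 3 reads per kilobase on average in every group. At 100 reads per kilobase or more stood 12 genes in male LPHC, 15 in male HPLC, 12 in female LPHC and 15 in female HPLC brains.

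**Figure D1:**
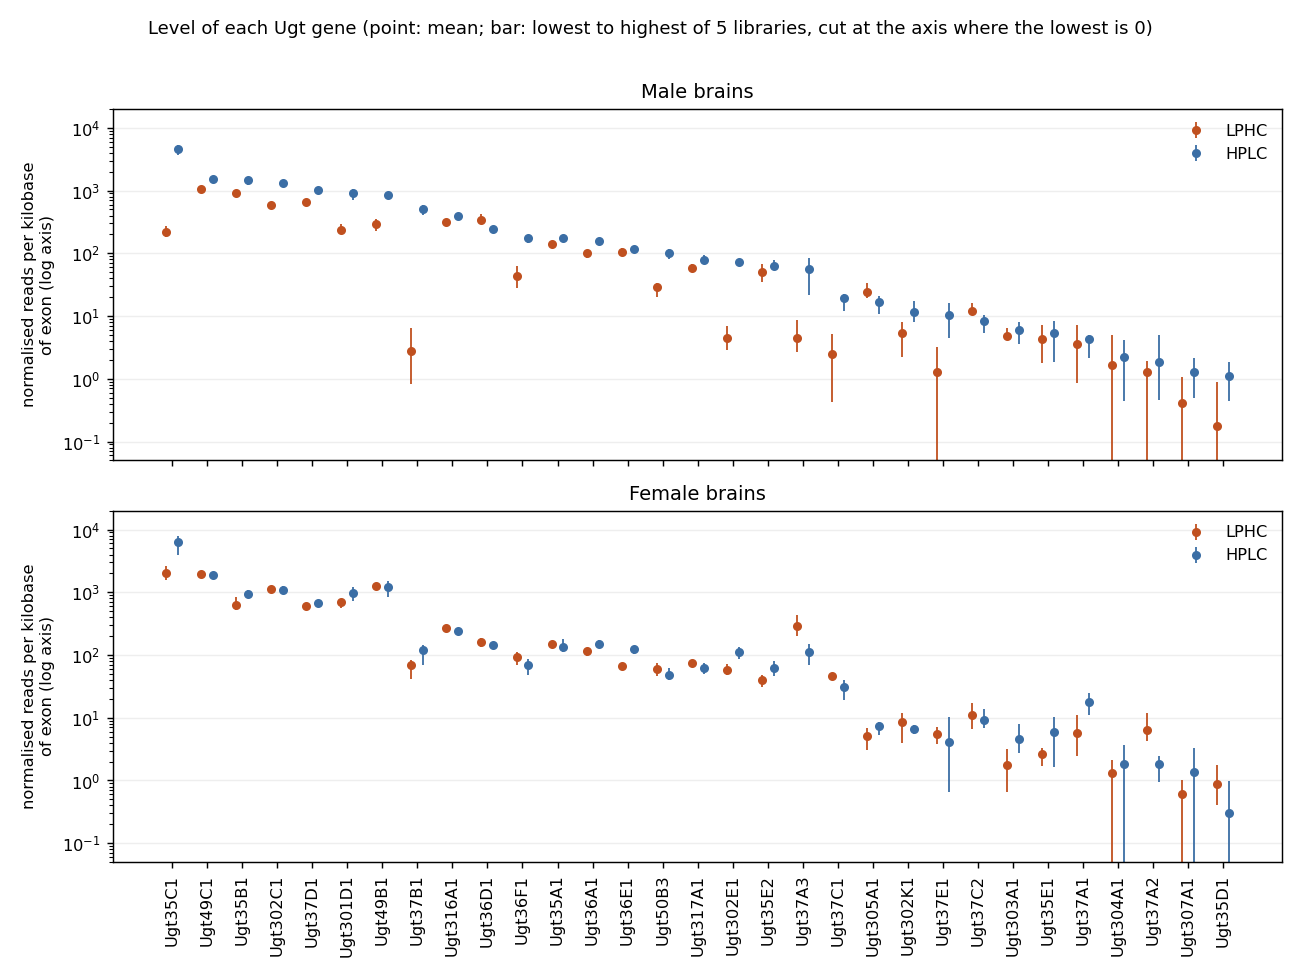
Level of each of the 31 Ugt genes in normalised reads per kilobase of exon on a log axis, males above and females below, LPHC beside HPLC; points are means of 5 libraries, bars run from the lowest to the highest library, and genes are ordered by their male HPLC level. Ugt35C1 is highest in male HPLC brains (4563) and in female HPLC brains (6365), while in male LPHC brains Ugt49C1 is highest (1042).

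Diet changes were tested with limma on log2(value + 1) over all genes that reached 10 normalised counts in 5 or more libraries of a sex, 10115 genes in males and 9932 in females, with Benjamini-Hochberg adjustment over all of them and a threshold of 0.05. Of the 31 Ugt genes 24 reached that level in males and 24 in females, 23 of them in both sexes. The remaining 7 in each sex are described with the low genes. All changes below are differences of mean log2(value + 1), LPHC minus HPLC, a measure that understates the change of low genes.

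In male brains most of the Ugt genes tested were lower on the LPHC diet. Of the 24 tested, 18 fell (75%, against 29.6% of all genes tested) and 2 rose (8.33%, against 27.6%). In either direction 20 were called, against 57.2% of all genes. A fall of at least 1 on the log2 scale was seen for 11 (45.8%, against 9.39%), and no Ugt gene rose that far (1.32% of all genes did). The LPHC and HPLC libraries did not overlap for 18 (42.7% of all genes did not), which are not the same 18 genes as those that fell. They include Ugt36D1, which rose, and Ugt37C2, which was not called, but not the falling genes Ugt302K1 and Ugt317A1. The median change of the tested Ugt genes was -0.67, against 0.02 over all genes. Ugt37B1, Ugt302E1, Ugt37A3 and Ugt37C1 reached the level needed for testing through their HPLC libraries alone. All 5 of these were at 10 or more, with an LPHC mean under 10. For such genes the rule fixed which mean was higher, but not whether the gene was called. They are among the 11 genes that fell by at least 1 and the 18 without overlap, and the median includes them. The p-values of these genes given below carry this selection. Among the 20 others 14 fell and 2 rose. With such genes left out of the whole table too, 29.2% of all genes fell and 27.6% rose.

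The scaling of the libraries bears on these counts. Scaled to the same total, the male libraries gave 15 Ugt genes lower and 3 higher, where the whole table gave 1861 lower and 5610 higher, against 2990 lower and 2794 higher as deposited. Scaled to the same upper quartile they gave 16 lower and 3 higher, where the whole table gave 2167 lower and 4722 higher. The median change of all genes moved to 0.27 and 0.18 under these scalings, and that of the Ugt genes to -0.42 and -0.51.

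Markers of other tissues moved with the male diets. The 11 fat body markers, all measured, took 0.0977% to 0.172% of the summed values in male LPHC and 0.425% to 0.559% in male HPLC libraries. Without the yolk protein genes they took 0.0893% to 0.1635% in male LPHC and 0.418% to 0.458% in male HPLC libraries. The 6 measured of 10 gut and Malpighian tubule markers took 0.0137% to 0.0238% in male LPHC and 0.117% to 0.146% in male HPLC libraries. The 10 glia markers took 0.127% to 0.137% in male LPHC and 0.187% to 0.209% in male HPLC libraries. The 7 haemocyte markers took 0.0340% to 0.0419% in male LPHC and 0.0494% to 0.0558% in male HPLC libraries, and the 2 measured of 5 male reproductive tract markers 0.00334% to 0.00528% in male LPHC and 0.0139% to 0.0187% in male HPLC libraries. The other way went the 7 measured of 8 muscle markers, at 0.291% to 0.342% in male LPHC and 0.152% to 0.188% in male HPLC libraries. The 9 measured of 10 taste organ markers were at 0.0289% to 0.0445% in male LPHC and 0.0185% to 0.0260% in male HPLC libraries. The 10 neuron markers were at 0.540% to 0.694% in male LPHC and 0.456% to 0.481% in male HPLC libraries. Olfactory organ, photoreceptor and yolk protein markers overlapped between the male diets. No measured marker of these lists was at 0 in a whole group. The part of these tissues in the Ugt changes was not tested, and fewer cells of a type and less RNA per cell cannot be told apart in bulk samples.

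Ugt37B1 had the largest fall of the family. Its normalised counts, in order of replicate number as in all such lists here, were 1.46, 2.79, 5.51, 11.3 and 3.23 in male LPHC libraries, against 1016, 1007, 841, 922 and 719 in male HPLC libraries. The LPHC values rest on 1 to 15 reads per library and lie far below every HPLC value. The change was -7.48 (SE 0.324; limma, adjusted p = 1.33e-10), which is -6.18 with a pseudocount of 8.

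Ugt35C1, the most abundant member in HPLC brains, held 308, 448, 372, 403 and 299 normalised counts in male LPHC libraries, against 8985, 6899, 7879, 8181 and 6181 in male HPLC libraries. Every HPLC library stood more than 10-fold above every LPHC library. The mean was 366 ± 63.1 in LPHC and 7625 ± 1100 in HPLC (SD, n = 5 each), a change of -4.38 (SE 0.119; limma, adjusted p = 1.22e-12). In sum Ugt35C1 made up 29.6% of all Ugt counts in male HPLC brains, while it was not among the 5 leading genes of male LPHC brains.

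Ugt302E1 lies in the same gene cluster as Ugt35C1. Its normalised counts were 7.30, 11.2, 7.71, 4.52 and 4.84 in male LPHC libraries, against 128, 105, 110, 132 and 107 in male HPLC libraries, and the groups were far apart. The LPHC values stand for 5 to 8 reads per library. The change of Ugt302E1 was -3.91 (SE 0.221, limma adjusted p = 2.23e-09), which is -3.05 with a pseudocount of 8.

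Ugt37A3 had 4.38, 6.97, 14.3, 4.52 and 6.46 normalised counts in male LPHC brains, against 138, 129, 80.1, 87.1 and 35.8 in male HPLC brains. Its HPLC libraries spread widely, with the lowest still above every LPHC library. The LPHC values stand for 3 to 13 reads per library. The change of Ugt37A3 was -3.48 (SE 0.369, limma adjusted p = 2.08e-06), which is -2.65 with a pseudocount of 8.

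Ugt37C1 was at a low level, with 7.30, 1.39, 3.31, 0.753 and 8.88 normalised counts in male LPHC libraries, against 21.1, 35.4, 39.5, 38.0 and 32.2 in male HPLC libraries. Its LPHC values stand for 1 to 11 reads, and the groups did not overlap. The change was -2.96 (SE 0.452; limma, adjusted p = 7.22e-05), and it shrank to -1.77 with a pseudocount of 8, by more than 1.5 times.

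The fall of Ugt36F1 was 4.09-fold on the fitted scale. Its counts were 65.7, 85.1, 105, 47.5 and 68.6 in male LPHC brains, against 322, 312, 296, 320 and 242 in male HPLC brains. The highest LPHC library did not reach the lowest HPLC library. The change was -2.03 (SE 0.171; limma, adjusted p = 1.84e-07).

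Ugt301D1 counts were 397, 476, 419, 578 and 430 in male LPHC brains, against 2130, 1735, 1607, 2040 and 1432 in male HPLC brains. The groups were apart by more than 2-fold at their nearest libraries. For Ugt301D1 the change was -1.95 (SE 0.117; limma, adjusted p = 4.31e-09).

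Ugt50B3 belongs to the UGT50 subfamily, which in most insects has a single member. It had 67.1, 92.0, 108, 112 and 104 normalised counts in male LPHC brains, against 382, 312, 342, 376 and 272 in male HPLC brains. All LPHC values lay below all HPLC values, and the change was -1.80 (SE 0.14; limma, adjusted p = 7.46e-08).

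Ugt49B1 held 474, 619, 437, 610 and 404 normalised counts in male LPHC brains, against 1633, 1422, 1427, 1585 and 1375 in male HPLC brains, with no overlap. Its change was -1.56 (SE 0.111; limma, adjusted p = 2.80e-08). Its neighbour of the same subfamily, Ugt49C1, averaged 1978 ± 129 in LPHC and 2900 ± 207 in HPLC (SD, n = 5 each), a change of -0.55.

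Ugt302C1 was the least variable of the strongly changed genes, at 1226, 1146, 1170, 1166 and 1077 normalised counts in male LPHC libraries, against 2820, 2697, 2482, 2806 and 2406 in male HPLC libraries. The change was -1.19 (SE 0.0579; limma, adjusted p = 4.52e-10). The third gene of that subfamily, Ugt302K1, was low, at 19.0, 20.9, 13.2, 9.04 and 5.65 in male LPHC, against 20.2, 28.5, 43.9, 26.8 and 31 in male HPLC libraries. Its groups overlapped, in that 1 LPHC library exceeded the lowest HPLC library, and its change was -1.18 (SE 0.329; limma, adjusted p = 0.00716).

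**Figure D2:**
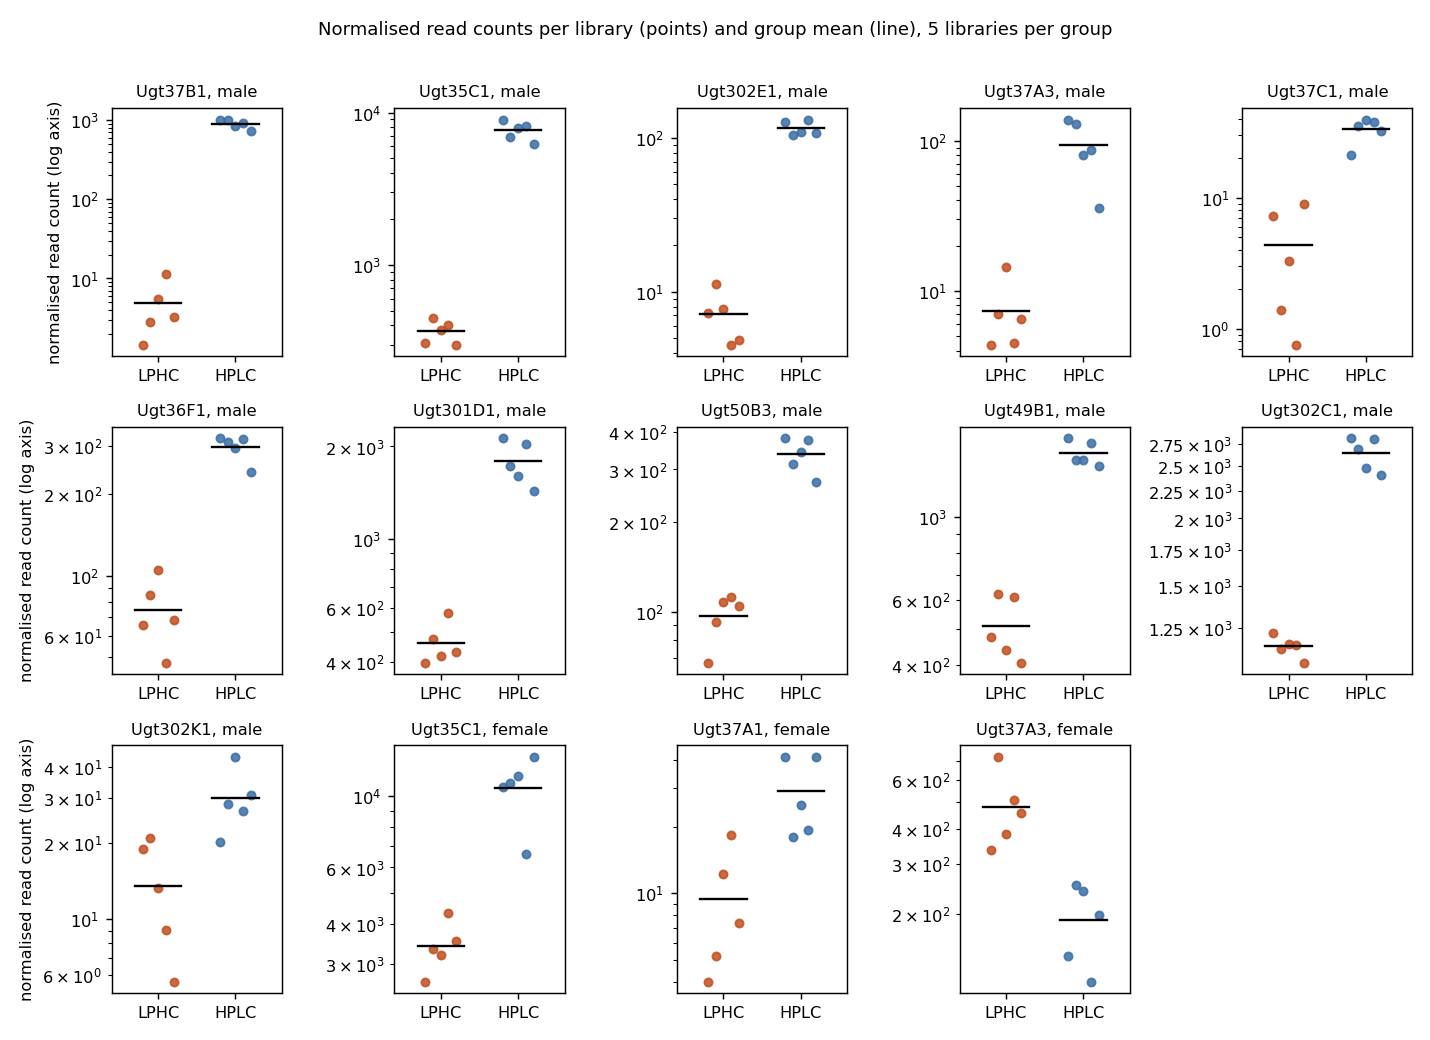
Normalised read counts per library on a log axis (each panel has its own range) for the 11 Ugt genes in males and 3 in females with an adjusted p under 0.05, a log2 change of at least 1 in size and a mean of at least 20 in the higher group; points are libraries, lines are means of 5, LPHC left of HPLC. Ugt37B1 counts in males lie between 1.46 and 11.3 on LPHC and between 719 and 1016 on HPLC, while Ugt37A3 is lower on LPHC in males and higher on LPHC in females.

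Smaller falls in males were those of Ugt35B1 (-0.68), Ugt37D1 (-0.66), Ugt36A1 (-0.61), Ugt317A1 (-0.41), Ugt35A1 (-0.33) and Ugt316A1 (-0.31). Ugt35B1, the second member by level in male LPHC brains, averaged 1546 ± 162 normalised counts in LPHC and 2472 ± 275 in HPLC (SD, n = 5 each). Ugt36A1, also named Dorothy and known as a marker of pericardial cells and of part of the blood-forming lymph gland, averaged 233 ± 21.4 in LPHC and 356 ± 31.5 in HPLC. With the libraries scaled to the same total, Ugt35A1 (-0.0781), Ugt317A1 (-0.163) and Ugt316A1 (-0.0583) did not pass, and with the same upper quartile Ugt35A1 and Ugt317A1 did not.

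The genes that rose in males were Ugt36D1 and Ugt305A1. Ugt36D1 averaged 786 ± 117 normalised counts in LPHC and 553 ± 31.6 in HPLC (SD, n = 5 each), with 668 to 976 in LPHC and 507 to 585 in HPLC libraries, so the groups were apart. Its change was 0.50 (SE 0.0883; limma, adjusted p = 2.81e-04). Ugt305A1 had 37.7 to 67.1 in LPHC and 21.5 to 41.7 in HPLC libraries, which overlap. Its change of 0.51 had a limma adjusted p of 0.0467, and it missed the threshold with no filter (0.0533), in edgeR (0.0536), in DESeq2 (0.0594) and in 6 of 10 fits without 1 library.

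Not called in males were Ugt35E2 (-0.36), Ugt303A1 (-0.27), Ugt36E1 (-0.14) and Ugt37C2 (0.53; SE 0.237; limma, adjusted p = 0.0717). Ugt36E1, which is known from olfactory neurons and pheromone discrimination, averaged 203 ± 20.9 normalised counts in male LPHC and 223 ± 7.96 in male HPLC brains (SD, n = 5 each). Olfactory organ markers took no more than 0.00475% of the summed values of any male library.

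**Figure D3:**
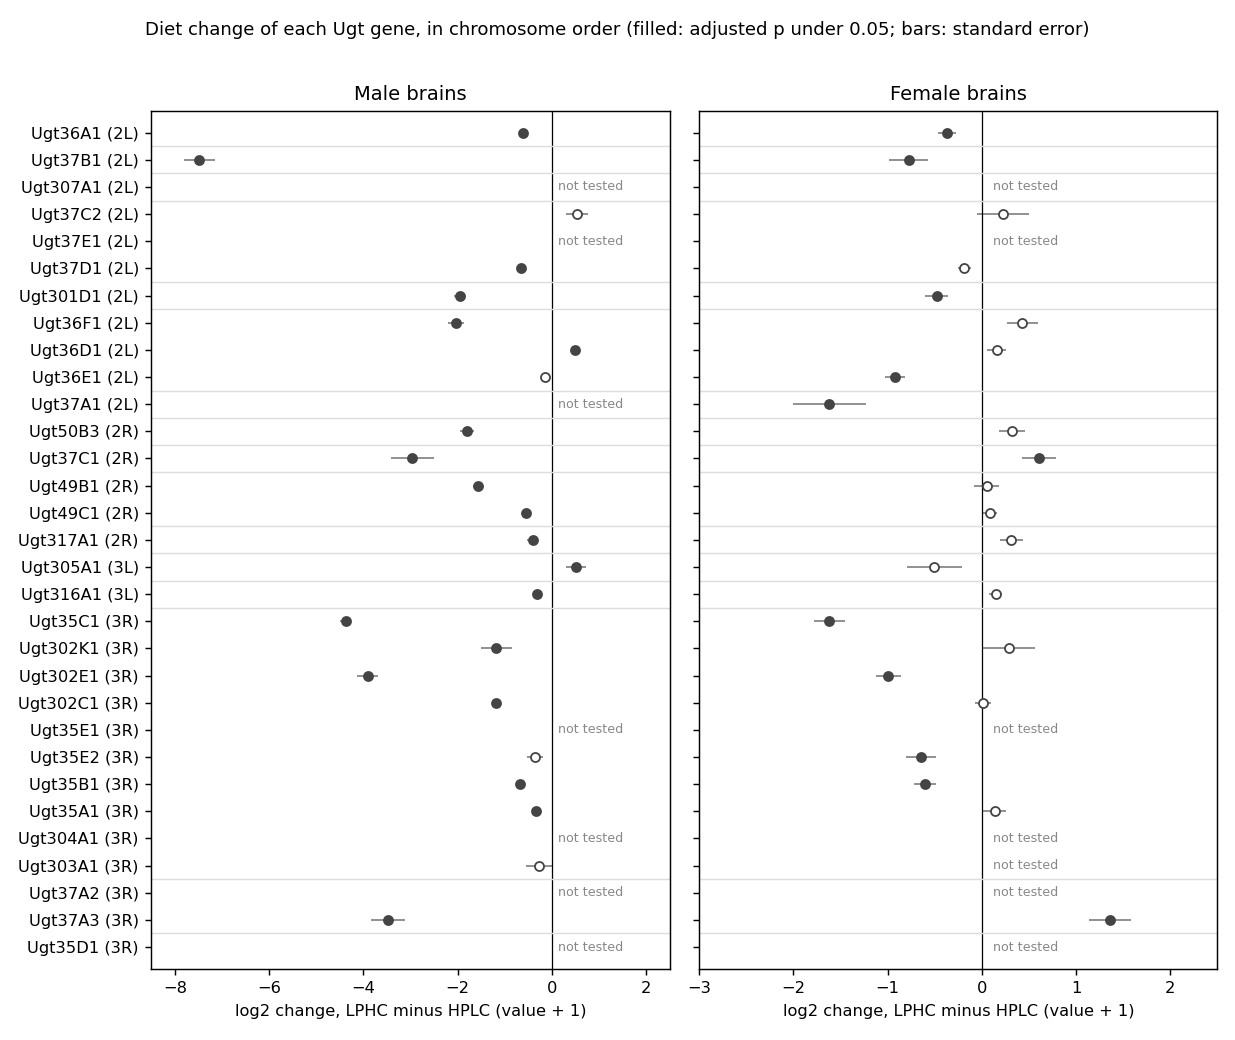
Log2 change of each Ugt gene (mean log2(value + 1), LPHC minus HPLC) for males on the left and females on the right (the axes differ). Genes are in chromosome order, and grey lines set apart clusters of Ugt genes and genes that stand alone. Filled points passed an adjusted p of 0.05 (limma) and bars are standard errors. In males 18 filled points lie below 0 and 2 above, and in females 9 lie below 0 and 2 above.

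In female brains Ugt35C1 fell again, and single genes moved in either direction. Of the 24 tested, 9 fell (37.5%, against 14.8% of all genes tested) and 2 rose (8.33%, against 16.7%), so that 11 were called (45.8%, against 31.5%). Falls of at least 1 on the log2 scale were those of Ugt35C1 and Ugt37A1 (8.33%, against 1.61%), and Ugt37A3 rose that far (4.17%, against 3.85%). LPHC and HPLC libraries did not overlap for 8 (22.1% of all genes did not). The median change of the tested Ugt genes was 0.03, against -0.02 over all genes. By the same rule as in males Ugt37A1 was tested through its HPLC libraries alone (LPHC mean under 10), and among the 23 others 8 fell and 2 rose. These include Ugt305A1, which was not called and whose LPHC mean of 10.01 lay just above that limit. With such genes left out of the whole table too, 14.9% of all genes fell and 15.9% rose.

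Scaled to the same total, the female libraries gave 8 Ugt genes lower and 9 higher, where the whole table gave 729 lower and 3190 higher, against 1471 lower and 1662 higher as deposited. Under that scaling Ugt36A1 no longer passed, and Ugt316A1, Ugt317A1, Ugt35A1, Ugt36D1, Ugt36F1, Ugt49C1 and Ugt50B3 passed as higher.

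In females too marker levels differed between the diets. The gut and Malpighian tubule markers took 0.0870% to 0.115% in female LPHC and 0.154% to 0.194% in female HPLC libraries. Fat body markers without the yolk protein genes took 0.679% to 0.843% in female LPHC and 0.732% to 1.13% in female HPLC libraries, which overlap. Glia markers took 0.167% to 0.181% in female LPHC and 0.136% to 0.148% in female HPLC libraries, the opposite order to males. Haemocyte markers took 0.0604% to 0.0699% in female LPHC and 0.0509% to 0.0604% in female HPLC libraries, barely apart and also opposite to males. Their part in the female changes was not tested.

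Ugt35C1 was again the leading gene by level, with 2644, 3350, 3204, 4328 and 3539 normalised counts in female LPHC libraries, against 10712, 11022, 11557, 6589 and 13296 in female HPLC libraries. HPLC replicate 4 was the lowest of its group and still above every LPHC library. The mean was 3413 ± 610 in LPHC and 10635 ± 2472 in HPLC (SD, n = 5 each), and the change was -1.62 (SE 0.162; limma, adjusted p = 2.18e-06). Ugt35C1 made up 18.4% of all Ugt counts in female LPHC brains and 40.0% in female HPLC brains.

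Ugt37A1, below the level needed for testing in males, had 3.99, 5.22, 12.3, 18.4 and 7.32 normalised counts in female LPHC libraries, against 41.1, 18.0, 25.2, 19.3 and 41.4 in female HPLC libraries. The groups overlapped at a single LPHC library of 18.4. Its change was -1.62 (SE 0.386; limma, adjusted p = 0.00473).

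Ugt37A3 stood out as higher on LPHC, with 338, 725, 384, 506 and 454 normalised counts in female LPHC libraries, against 141, 251.8, 241, 114 and 197 in female HPLC libraries. The groups did not overlap. Its mean was 481 ± 151 in LPHC and 189 ± 60.4 in HPLC (SD, n = 5 each), a change of 1.36 (SE 0.224; limma, adjusted p = 2.71e-04). Ugt37C1 was the other gene that rose, with 72.6 to 88.3 in LPHC and 33.4 to 70.7 in HPLC libraries and a change of 0.61 (SE 0.181; limma, adjusted p = 0.0193).

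The remaining falls in females were those of Ugt302E1 (-0.99), Ugt36E1 (-0.93), Ugt37B1 (-0.78), Ugt35E2 (-0.65), Ugt35B1 (-0.60), Ugt301D1 (-0.48) and Ugt36A1 (-0.37). Ugt36E1 averaged 126 ± 12.1 normalised counts in female LPHC and 240 ± 29.4 in female HPLC brains (SD, n = 5 each), with 109 to 141 in LPHC and 199 to 266 in HPLC libraries, so its groups were apart. Ugt37B1 had 71.2 to 146 in female LPHC and 120 to 249 in female HPLC libraries, which overlap. Of the 13 genes not called, Ugt305A1 had the lowest estimate (-0.50) and Ugt36F1 the highest (0.43; SE 0.165; limma, adjusted p = 0.0615). Ugt302C1 (0.01; SE 0.0840), Ugt49B1 (0.05; SE 0.130) and Ugt49C1 (0.08; SE 0.0754) had estimates close to 0.

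Set side by side, 6 of the 23 Ugt genes tested in both sexes fell in both, where 7.23% of all genes did: Ugt301D1, Ugt302E1, Ugt35B1, Ugt35C1, Ugt36A1 and Ugt37B1. Ugt37A3 and Ugt37C1 fell in males and rose in females (8.7%, against 6.73% of all genes), a share near that of all genes. Of these 8 genes Ugt302E1, Ugt37B1, Ugt37A3 and Ugt37C1 were tested in males through their HPLC libraries alone. Among the 19 genes left without them, 4 fell in both sexes (21.1%, against 7.21% of all genes so chosen) and 0 fell in males and rose in females (6.46%). With limma none rose in both sexes (2.5% of all genes) or rose in males and fell in females (4.09%), and these counts were also 0 at an unadjusted p under 0.05, in edgeR and in DESeq2. Ugt37C2 alone was called in neither sex (31.1% of all genes). With equal totals 5 genes were lower in both sexes (without Ugt36A1; 4.23% of all genes) and Ugt36D1 was higher in both (15.9% of all genes). Lower in males and higher in females were then 5 genes (6.65% of all genes), Ugt36F1, Ugt49C1 and Ugt50B3 besides Ugt37A3 and Ugt37C1. Ugt37C2 passed as higher in males under both other scalings.

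The difference between the sexes was tested as the male change minus the female change in 1 limma fit over the 9766 genes tested in both. It passed for 19 of the 23 Ugt genes, against 52.3% of all genes. The male change lay below the female change for 16 (69.6%, against 29.6%) and above it for 3 (13%, against 22.7%). Without the 4 genes tested in males through HPLC alone these counts were 12 of 19 (63.2%, against 29% of all genes so chosen) and 3 (15.8%, against 23%). The median difference was -0.73 for all 23 Ugt genes, these 4 included, and -0.02 for all genes. Since the male LPHC diet had a protein part of 0 and the female LPHC diet did not, this is a difference between 2 pairs of diets as much as between sexes.

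The widest differences were those of Ugt37B1 (-6.70; SE 0.422; limma, adjusted p = 9.55e-12), Ugt37A3 (-4.84; SE 0.459; adjusted p = 8.75e-09) and Ugt37C1 (-3.57; SE 0.50; adjusted p = 3.17e-06), all 3 tested in males through HPLC alone. Ugt35C1, called lower in both sexes, still differed by -2.76 (SE 0.222; limma, adjusted p = 5.77e-10). Ugt302C1 and Ugt49B1, with female changes close to 0, differed by -1.20 and -1.61. Above 0 were Ugt305A1 (1.02), Ugt36E1 (0.79) and Ugt36D1 (0.34). The value of Ugt36D1 had a limma adjusted p of 0.0471 and missed the threshold in 13 of 20 fits without 1 library, at up to 0.0989. For Ugt35B1 (-0.07; SE 0.157), Ugt36A1 (-0.24; SE 0.128), Ugt35E2 (0.29; SE 0.247) and Ugt37C2 (0.30; SE 0.359) no difference was called.

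Low genes below the level needed for testing in males were Ugt304A1, Ugt307A1, Ugt35D1, Ugt35E1, Ugt37A1, Ugt37A2 and Ugt37E1, and in females the same with Ugt303A1 in place of Ugt37A1. In a fit with no filter on low values, Ugt37E1 was lower in male LPHC brains, at 2.08 ± 2.43 normalised counts, against 16.8 ± 8.66 in male HPLC brains (SD, n = 5 each; change -2.79; limma, adjusted p = 6.95e-04). In the same kind of fit for females, Ugt37A2 was higher at 11 ± 5.42 in LPHC and 3.15 ± 1.03 in HPLC (change 1.48; limma, adjusted p = 0.00464), and Ugt303A1 was lower at 3.55 ± 1.98 in LPHC and 9.42 ± 4.29 in HPLC (change -1.22; limma, adjusted p = 0.0271). Ugt35D1 was read 1 time over the 5 male LPHC libraries and 10 times over the 5 male HPLC libraries, too few for a fold change (limma with no filter, adjusted p = 0.0488). The other low genes did not pass in a sex in which they were below that level.

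The 31 genes fall into 13 numbered subfamilies, of which Ugt37 (8 genes) and Ugt35 (6) are the largest. In males 4 of the 5 tested Ugt37 genes fell, from -7.48 for Ugt37B1 to -0.66 for Ugt37D1 (29.6% of all genes fell), but 3 of the 4 were tested through HPLC alone. In females 2 of 6 fell, of which Ugt37A1 was tested through HPLC alone, and 2 rose (14.8% and 16.7% of all genes); with either other scaling the same counts held except that Ugt37C2 rose in males. All 3 Ugt302 genes fell in males (29.6% of all genes), of which Ugt302E1 was tested through HPLC alone. In females 1, Ugt302E1, fell (14.8% of all genes). These Ugt302 counts were the same under each of the 3 scalings, and the shares of all genes are those as deposited. Of the Ugt36 genes in males, Ugt36F1 and Ugt36A1 fell and Ugt36D1 rose.

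On the reference annotation 11 of the genes lie on chromosome arm 2L, 5 on 2R, 2 on 3L and 13 on 3R. Clusters of 2 or more genes, with at most 30000 bases between the starts of neighbours, hold 20 of them, and 11 stand alone. The largest cluster has 10 genes on 3R: Ugt35C1, Ugt302K1, Ugt302E1, Ugt302C1, Ugt35E1, Ugt35E2, Ugt35B1, Ugt35A1, Ugt304A1 and Ugt303A1. In males 6 of its 8 tested genes fell and none rose (29.6% and 27.6% of all genes), with changes between -4.38 and -0.27; without Ugt302E1, tested through HPLC alone, 5 of 7 fell. In females 4 of 7 fell and none rose (14.8% and 16.7% of all genes). No gene of the cluster was higher at an unadjusted p under 0.05, in edgeR or in DESeq2 (0 in each). With equal totals the cluster gave 5 lower and 0 higher in males and 4 lower and 1 higher, Ugt35A1, in females. Under that scaling 1861 of all 10115 genes were lower and 5610 higher in males. In females 729 of all 9932 genes were lower and 3190 higher. Neighbours did not always move alike: Ugt36F1 fell by 2.03 on the log2 scale in males, and Ugt36D1, next to it on the same strand, rose by 0.50. Ugt37E1, with 2.08 counts in male LPHC and 16.8 in male HPLC brains, lies between Ugt37C2, with 21.8 in male LPHC and 15.0 in male HPLC, and Ugt37D1, with 1265 in male LPHC and 2012 in male HPLC.

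Exonic bases are shared with a gene or element on the opposite strand by 5 members: Ugt36A1 with CG15418, Ugt307A1 with Pvf2, Ugt36E1 with CG17597, Ugt49B1 with CG44245 and Ugt37A1 with a transposon. Whether reads were counted by strand is not given in the sources used here, and the values of these genes are uncertain by the reads they share. CG44245 was higher in male LPHC (2964) than in male HPLC brains (1950), while Ugt49B1 was lower. CG17597 averaged 174 in male LPHC and 474 in male HPLC brains, a change of -1.44 (limma, adjusted p = 5.87e-09), where Ugt36E1 was not called. How reads that match several Ugt genes were counted is not given either, and similarity between members was not measured.

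Supply of the sugar donor was followed with a list of 15 genes, of which 14 were measured (frc is not analysed here). They make or move nucleotide sugars or their precursors, except sll, which moves a sulfate donor. As deposited, sll is counted below among the falls in males (-0.14) and in females (-0.35). This list and the second one below were chosen with earlier results of these data known. Their counts describe the listed genes and are not a test of a pathway. In males 11 of the 14 fell and none rose (29.6% and 27.6% of all genes), with a median change of -0.38 against 0.02 over all genes. With equal totals 7 fell and 3 rose, where 1861 of all 10115 genes fell and 5610 rose. With equal upper quartiles 7 fell and 2 rose, where 2167 of all genes fell and 4722 rose. As deposited, 0 rose at an unadjusted p under 0.05, in edgeR or in DESeq2. Galk and Galt, enzymes of galactose metabolism, changed by -3.05 and -1.89, and UGP, which makes UDP-glucose, by -1.39. UGP averaged 3641 ± 531 normalised counts in male LPHC and 9496 ± 736 in male HPLC brains (SD, n = 5 each). In females 5 rose and 5 fell (16.7% and 14.8% of all genes), with a median of -0.04 against -0.02 over all genes. These counts held under both other scalings. Of all 9932 genes 3190 rose and 729 fell with equal totals, and 1762 rose and 1277 fell with equal upper quartiles. Gfat2, of the hexosamine route to UDP-N-acetylglucosamine, rose by 1.02, while Galk (-0.84), UGP (-0.69) and Pgm1 (-0.51) fell.

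A second list held 13 genes, all measured. They are genes of xenobiotic response, export and electron transfer, together with the juvenile hormone receptors Met and gce. In males 7 fell and none rose (29.6% and 27.6% of all genes), with a median change of -0.14 against 0.02 over all genes. With equal totals 6 fell and 7 rose, where 1861 of all 10115 genes fell and 5610 rose. The median was then 0.11, against 0.27 over all genes. With equal upper quartiles 6 fell and 4 rose, where 2167 of all genes fell and 4722 rose. As deposited, 1 (maf-S) was higher in edgeR and at an unadjusted p under 0.05, and 0 in DESeq2. The largest change was that of the exporter Mdr50, at 15.1 ± 7.20 normalised counts in male LPHC and 250.1 ± 16.5 in male HPLC brains (SD, n = 5 each; change -4.09; limma, adjusted p = 1.27e-08). Keap1 (-1.36) and cnc (-1.10), the sensor and the transcription factor of a main detoxification response of flies, and Cpr (-0.97), the electron donor of P450 enzymes, fell too. In females Mdr49 (1.10) and Mdr65 (0.62) rose, Mdr50 (-0.54) and gce (-0.43) fell (16.7% and 14.8% of all genes), and the median was -0.05 against -0.02 over all genes. With equal totals none of the 13 fell in females and 5 rose, where 729 of all 9932 genes fell and 3190 rose.

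As a share of all summed values, the 31 Ugt genes took 0.0468% ± 0.00158 in male LPHC and 0.0988% ± 0.00868 in male HPLC libraries (SD, n = 5 each; 2-sided exact permutation test, p = 0.00794, the smallest that 5 against 5 can give; 0.0159 adjusted over both sexes). Every male LPHC library (0.0444% to 0.0488%) was below every male HPLC library (0.0859% to 0.107%). In females the share was 0.0899% ± 0.00647 in LPHC and 0.115% ± 0.0147 in HPLC libraries (exact permutation p = 0.0317, adjusted 0.0317). Without 1 library the female exact p reached 0.0635 in 6 of 10 cases.

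Without Ugt35C1 the male share was 0.0451% in LPHC and 0.0696% in HPLC libraries (exact permutation p = 0.00794). In females the remaining 30 genes took 0.0733% in LPHC and 0.0692% in HPLC libraries, a difference of the other sign that was within the spread (exact permutation p = 0.214).

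**Figure D4:**
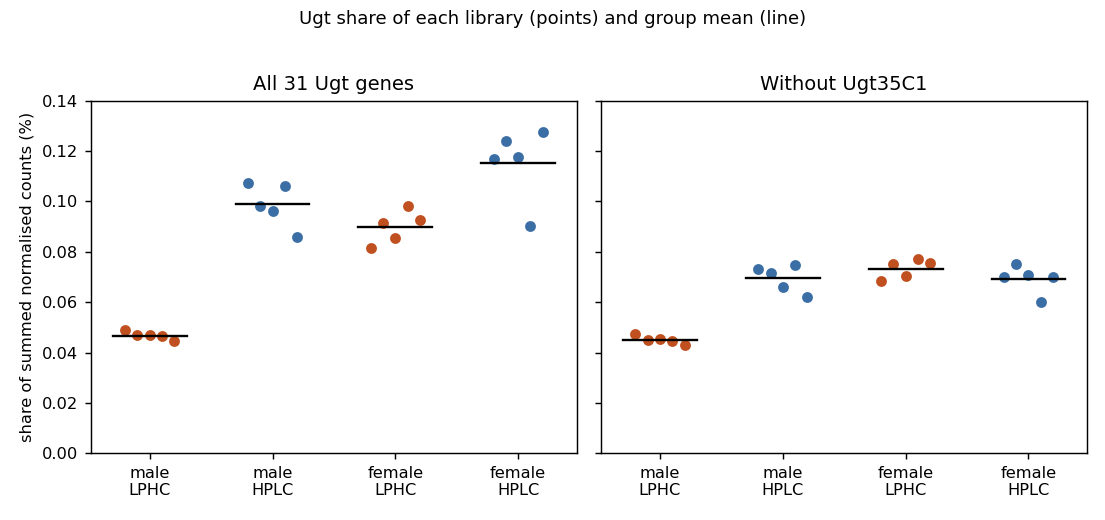
Share of the summed normalised counts taken by all 31 Ugt genes (left) and by the genes other than Ugt35C1 (right) in percent per library, for male LPHC, male HPLC, female LPHC and female HPLC; points are libraries and lines are means of 5. In males LPHC lies below HPLC in both panels, and in females the mean with Ugt35C1 is 0.0899% on LPHC and 0.115% on HPLC, and without it 0.0733% on LPHC and 0.0692% on HPLC.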

How the data were processed

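Per the submitters' processing notes the aligner was HISAT2, whose version is not named. What the authors deposited is a size-factor normalised signal for each gene and library, in 1 table per sex. Normalisation with DESeq2 and the removal of long non-coding RNAs are known from the names of the deposited tables alone. The sources used here do not give the counting tool, the strandedness, the genome build or the annotation. Coordinates are therefore left out. Names, gene order, overlaps and exon lengths come from the reference annotation, in which all 31 members were found by symbol.

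Within a library 100% of the values were whole multiples of 1 read (tolerance 0.01), which gives the depths and the reads for the count tests. No pair of libraries agreed within sampling noise (smallest chi-square per degree of freedom 7.55). Unused columns of per-sample values numbered 0.

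Main test: limma 3.58.1 (R 4.3.3) with an intensity trend, 2-sided, within each sex and once over both. Shares were compared with exact permutation tests (SciPy 1.17.1). Alternatives were pseudocounts of 0.5 and 8, no filter, scaling to the same total or upper quartile, a block for the replicate number, fits without 1 library, and edgeR 4.0.16 and DESeq2 1.42.0 on the recovered reads. The fits were tested on simulated reads with known changes. The simulated reads had a common dispersion for every gene, and they do not speak to genes with wider scatter.

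All Ugt genes are named. Values of every library are given for genes with an adjusted p under 0.05, a log2 change of at least 1 in size and a mean of at least 20 in the higher group, and of the pathway lists up to 4 genes per sex with the largest change are named, apart from 1 that is not reported here. Besides these, frc, sll, Met and maf-S are named for the make-up or the counts of their lists. Members and lists were chosen with earlier results of these data known.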

Additional observations from a re-analysis of the deposited data

Results flagged for a closer look

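In 3 of 96 groups of 5 libraries a single library stood apart from the other 4 by Dixon's criterion, where chance gives about 1 in 20. Ugt37C2 had 29.3 normalised counts in male LPHC replicate 2, against 18.97 to 20.94 in the other male LPHC libraries. Ugt37A3 had 14.3 in male LPHC replicate 3, against 4.38 to 6.97 in the others. Ugt36A1 had 218 in female LPHC replicate 1, below the 271.5 to 291.1 of the others.

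The diet change of 19 Ugt genes differed between males and females by the test of the difference itself (limma, adjusted p under 0.05), given here as the male change minus the female change on the log2 scale. Below -2 were Ugt37B1 (-6.70), Ugt37A3 (-4.84), Ugt37C1 (-3.57), Ugt302E1 (-2.92), Ugt35C1 (-2.76), Ugt36F1 (-2.46) and Ugt50B3 (-2.12). The first 4 of these were tested in males through their HPLC libraries alone. Between -2 and -1 were Ugt49B1 (-1.61), Ugt301D1 (-1.48), Ugt302K1 (-1.47) and Ugt302C1 (-1.20). Smaller differences below 0 were those of Ugt317A1 (-0.73), Ugt49C1 (-0.63), Ugt37D1 (-0.48), Ugt35A1 (-0.46) and Ugt316A1 (-0.45). Above 0 were Ugt305A1 (1.02), Ugt36E1 (0.79) and Ugt36D1 (0.34). The recipes differ between the sexes, and sex and recipe cannot be told apart.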

How the results depend on the processing

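Over the Ugt genes' changes and their differences between sexes, 1402 of 1462 values under an alternative kept their direction and their side of the threshold, 29 lost the call, 20 gained one and 11 turned sign. Of the genes higher in males 1 remained called, Ugt36D1, with no filter, in edgeR and in DESeq2, and 1 to 2 without 1 library; the lower ones numbered 18 to 19 without 1 library. In females 9 were higher after scaling to equal totals, and 2 to 5 without 1 library (5 without HPLC replicate 3), while 9 to 10 were lower. Over the whole table the same total gave 5610 higher and 1861 lower in males and 3190 higher and 729 lower in females, and the same upper quartile gave 4722 higher in males. Fits without 1 library left 2 to 3 differences between sexes above 0 and 16 to 17 below. All 11 of these values that turned sign were uncalled. Ugt36E1 in males was at 0.111 for equal totals and 0.0241 for equal upper quartiles. Ugt35B1, as the difference between sexes, was at 0.0127 and 0.0656 under these scalings and at -0.146 to 0.0363 without 1 library. In females Ugt302C1 ranged from -0.0371 to 0.0584 and Ugt49B1 from -0.0793 to 0.137 without 1 library. Apart from these, the female difference in share, called at -0.0253 percentage points with all Ugt genes, turned to 0.00415 without Ugt35C1. It was -0.0316 to -0.0222 without 1 library, an alternative chosen after seeing the data. The cause of these shifts was not tested.

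Replicate numbers are only names in the labels: deviations of same-numbered libraries correlated between -0.228 and 0.0478, and no same-numbered pair was the best match in both directions. With the number as a block, the Ugt genes called were 2 higher and 18 lower in males, 2 higher and 9 lower in females, and 3 above and 16 below 0 for the difference, with no call changed.

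Depth limits the genes near 10 counts: Ugt37B1 and Ugt37C1 rest on 1 to 15 and 1 to 11 reads in male LPHC libraries. Ugt302E1 and Ugt37A3 rest on 5 to 8 and 3 to 13 reads there. With a pseudocount of 8 the male changes of Ugt302E1 and Ugt37A3 shrank to -3.05 and -2.65. The standard errors given for these genes rest on the variation among libraries in the limma fit.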
